A study of Saccharomyces cerevisiae with 8 samples.

Results

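The genes described here are 9 yeast genes that carry a small nucleolar RNA (snoRNA) in an intron or have an intron cut by the RNase III enzyme Rnt1: RPS22B, RPL18B, RPL7A, RPL7B, EFB1, ASC1, TEF4, IMD4 and NOG2. They were found by the gene symbol in the array platform's annotation. A probe set is a group of short probes that together give 1 signal. 8 of the 9 genes had at least 1 probe set of their own, and 18 of the 9275 probe sets that are not controls belonged to them, on arrays that named 5656 genes by a probe set of 1 gene. RPS22B and RPL7A had 3 probe sets each, and RPL7B, EFB1, ASC1, TEF4, IMD4 and NOG2 had 2 each. RPL18B had none under its own symbol and was not analysed here.

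Most yeast snoRNAs guide the methylation or pseudouridylation of ribosomal RNA, and a small number of them lie within introns of protein-coding genes. Such a snoRNA is released when the spliced intron lariat is opened by the debranching enzyme Dbr1 and trimmed by exonucleases, or when an endonuclease cuts the intron. Rnt1 recognises short hairpins capped by a 4-base loop. It separates many clustered snoRNAs from their common precursors, and it is known to cut hairpins within the introns of RPS22B. Host genes of this kind usually code for ribosomal proteins or for other parts of the translation machinery.

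The arrays measured total RNA of exponentially growing Saccharomyces cerevisiae. At 26 C there were 2 rnt1d arrays, labelled biological replicates 1 and 2, 1 rnt1ts array, and 2 wild type arrays, also replicates 1 and 2. At 37 C there was 1 array each labelled rnt1d, rnt1ts and wild type. The labels name yeast complete medium with or without leucine, and do not say which array had which. They give neither the parent strain nor the number of clones. The comparisons with wild type at 26 C use the same 2 wild type arrays and are not independent of each other.

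RNT1 itself was at 1.3 and 2.0 normalised signal in rnt1d at 26 C and 39.8 in rnt1ts at 26 C, against 181 and 149 in wild type at 26 C. At 37 C it was at 71.4 on the array labelled rnt1d and at 1.26 on the array labelled rnt1ts, against 268.5 in wild type. The 3 lowest of these lay under the brightest non-yeast control on the same array (3.48 to 10.7 over the 8 arrays), and thus at background. The RNT1 signals at 37 C therefore go against the labels of the 2 mutant arrays, which are called below "the array labelled rnt1d" and "the array labelled rnt1ts". The 3 mitochondrially encoded genes OLI1, COX1 and ATP6 followed the same split. Their summed signal was 7.11 and 7.17 in rnt1d at 26 C and 2.31 at 37 C on the array labelled rnt1ts, with 0 of 3 genes above background. On the array labelled rnt1d at 37 C it was 2807 and in rnt1ts at 26 C 3242, against 4106 to 4477 on the wild type arrays. The summed signal of 4 alpha-specific mating genes was 4890 in rnt1ts at 26 C and 2101 on the array labelled rnt1d at 37 C, and 94.0 to 137 on the other 6 arrays. Most of the 2101 was MF(ALPHA)1, at 1957. STE3 was also above those 6 arrays there, at 60.5. MF(ALPHA)2 and SAG1 did not follow, at 13.4 and 69.7 there, against 1112 and 508 in rnt1ts at 26 C. The summed signal of 4 a-specific mating genes (MFA1, MFA2, STE2 and BAR1) ran the other way. It was 28.5 in rnt1ts at 26 C and 89.9 on the array labelled rnt1d at 37 C, and 1189 to 3807 on the other 6 arrays. The part of this mating gene difference in the host gene results was not tested. Spiked-in bacterial controls were bright only on the arrays of replicate 2 at 26 C, with a median deposited signal of 31.5 in rnt1d and 59.8 in wild type, against 1.64 to 4.83 on the other 6 arrays. Median deposited signals of all probe sets lay between 31.04 and 69.55, and values below are quantile-normalised signals unless stated otherwise.

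In rnt1d against wild type at 26 C, 5 of the 18 host gene probe sets passed the test, 3 higher and 2 lower. The background was 5.49% of all probe sets called, 3.54% higher and 1.95% lower (limma on log2(signal + 16), Benjamini-Hochberg adjusted p under 0.05). Those that rose were 2 of 3 probe sets of RPS22B and 1 of 3 of RPL7A, and those that fell were both probe sets of RPL7B. The median log2 change over the 18 was -0.30, against -0.03 over all probe sets, and 14 of the 18 had a negative change. Counted by gene, with the brightest probe set of each, 7 of the 8 host genes had a negative change. So had 64 of 81 genes with a ribosomal protein symbol, 3 of them hosts, and 2979 of all 5656 genes. Each mean rests on 2 arrays and the fit had 2 residual degrees of freedom. On the scale as deposited 1 of the 18 was called, RPL7B 7960_i_at, and with any 1 of the 4 replicated arrays left out 0 or 1 was called. A whole-culture signal cannot tell fewer cells that carry a transcript from less transcript per cell.

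**Figure D1:**
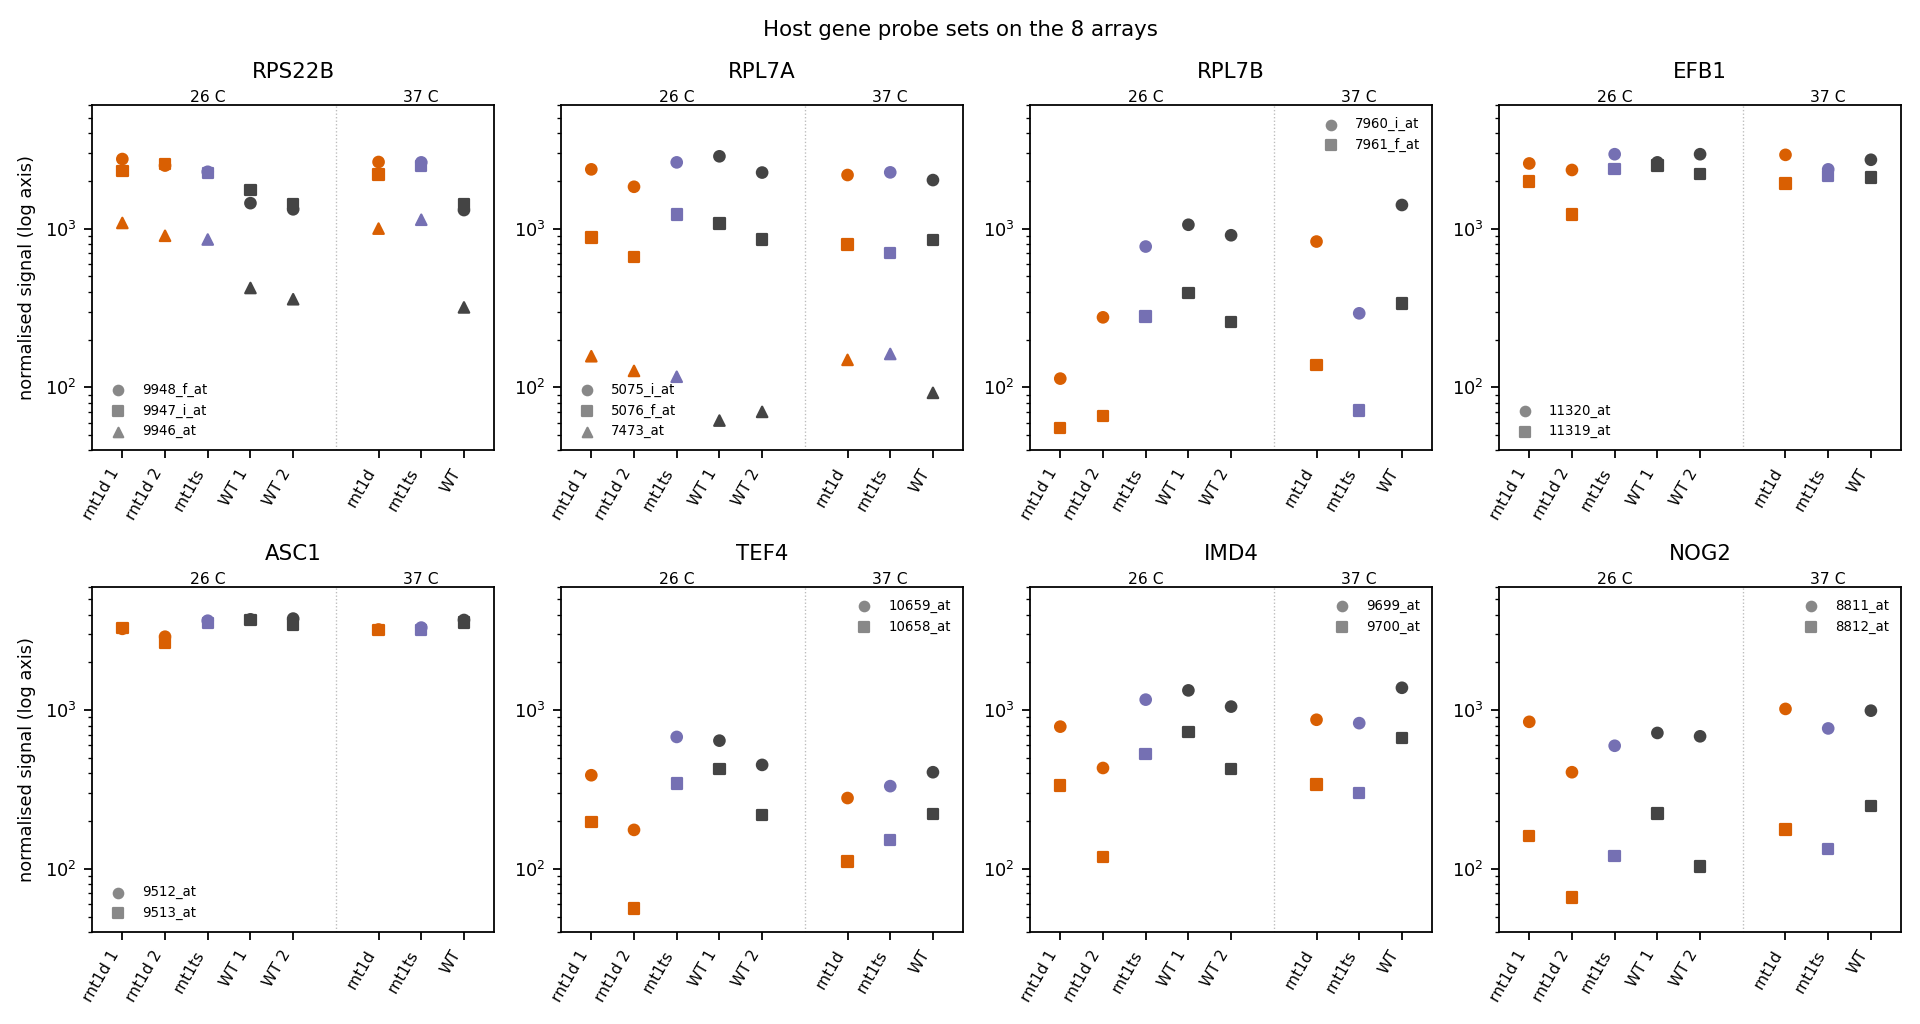
Normalised signal (log axis) of every host gene probe set on the 8 arrays, with rnt1d in orange, rnt1ts in violet and wild type in grey, and the 37 C arrays placed by their labels. RPS22B lies higher on all 5 mutant arrays than on the 3 wild type arrays, RPL7B is lowest in rnt1d at 26 C and on the 37 C array labelled rnt1ts, and ASC1 varies little.

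RPS22B codes for a protein of the small ribosomal subunit and carries the snoRNA SNR44 in an intron. After normalisation RPS22B was higher on every mutant array than on every wild type array in all 3 of its probe sets. Of all probe sets, 5.93% had that order. Probe set 9946_at read 1085 and 900.5 in rnt1d at 26 C and 853 in rnt1ts at 26 C, against 422 and 359 in wild type at 26 C. Among the 37 C arrays it read 999 on that labelled rnt1d and 1136 on that labelled rnt1ts, against 319 in wild type. The lowest mutant array was thus at 853 and the highest wild type array at 422, and the 37 C array labelled rnt1ts was the brightest of all. Its mean was 993 ± 130 in rnt1d and 390 ± 44.9 in wild type at 26 C (SD, n = 2 each), and the log2 change was 1.31 (SE 0.17, limma adjusted p = 0.0175).

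Probe set 9948_f_at, the brightest of the gene, read 2742 and 2495 in rnt1d at 26 C and 2280 in rnt1ts at 26 C, against 1446 and 1322 in wild type at 26 C. The 37 C arrays labelled rnt1d and rnt1ts read 2627 and 2613, against 1308 in wild type at 37 C. The 5 mutant values spanned 2280 to 2742 and the 3 wild type values 1308 to 1446, and the gap between them was wider than either range. The log2 change in rnt1d at 26 C was 0.91 (SE 0.15, limma adjusted p = 0.0311). Probe set 9947_i_at read 2310 and 2551 in rnt1d and 2240 in rnt1ts at 26 C, against 1745 and 1430 in wild type at 26 C. At 37 C it read 2191 on the array labelled rnt1d and 2479 on the array labelled rnt1ts, against 1430 in wild type. Its log2 change in rnt1d at 26 C was 0.61 (SE 0.17), which did not pass the test (limma adjusted p = 0.094). The suffix of 9948_f_at marks a probe set that may share sequence with related genes. 9947_i_at carries a different suffix, and 9946_at carries neither. Nothing in the labels or annotation used here says which exon or intron a probe set reads.

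The size of the RPS22B change depended on how the arrays were scaled. Scaled to a common median, 9946_at had a log2 change of 0.92 (limma adjusted p = 0.0432) and 9948_f_at 0.33 (limma adjusted p = 0.321). The median change of 81 genes with a ribosomal protein symbol was -0.71 under that scaling and -0.17 under quantile normalisation. On the deposited signals, 9946_at spanned 581 to 1264 on the mutant arrays and 268 to 445 on the wild type arrays, again with no overlap. 9948_f_at spanned 1682 to 3035 on the mutant arrays and 1177 to 1630 on the wild type arrays. The ranges of 9947_i_at overlapped, 1710 to 2964 on the mutant arrays and 1273 to 1933 on the wild type arrays. None of the 3 was called in rnt1d at 26 C on the deposited signals (limma adjusted p = 0.583 for 9946_at). Within replicate 1 the change in rnt1d of 9946_at was 1.33 and within replicate 2 it was 1.29, and for 9948_f_at these were 0.92 and 0.91. For 9947_i_at they were farther apart, 0.40 and 0.83. Leaving out any 1 of the 4 replicated arrays ended the call at 26 C for 9946_at (limma adjusted p 0.0545 to 0.210) and for 9948_f_at (0.0720 to 0.254).

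RPS22B was also compared over all 5 mutant arrays against all 3 wild type arrays, with temperature in the model, a comparison chosen after the values had been seen. 4 of the 18 host gene probe sets were then called higher and 0 lower, against a background of 1.28% of all probe sets called, 0.809% higher and 0.474% lower. They were the 3 of RPS22B and 7473_at of RPL7A. The RPS22B log2 changes were 1.40 for 9946_at (SE 0.15, limma adjusted p = 0.00348), 0.90 for 9948_f_at (SE 0.10, adjusted p = 0.00432) and 0.62 for 9947_i_at (SE 0.11, adjusted p = 0.0439). Leaving out any 1 replicated array kept 9946_at (limma adjusted p 0.0121 to 0.0314) and 9948_f_at (0.0133 to 0.0450) called, and ended the calls of 9947_i_at (0.0853 to 0.203) and RPL7A 7473_at (0.0956 to 0.218). Scaled to a common median, 9946_at and 7473_at were called and 9948_f_at was not (limma adjusted p = 0.141). Without the 2 mutant arrays at 37 C, no host gene probe set was called, and 9946_at had a log2 change of 1.24 (limma adjusted p = 0.0913). On the deposited signals none was called either, with a log2 change of 1.41 for 9946_at (limma adjusted p = 0.0643). Counting arrays alone, 4 of the 18 probe sets lay higher on all 5 mutant arrays than on all 3 wild type arrays and 2 lower, against 5.93% and 6.22% of all probe sets.

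**Figure D2:**
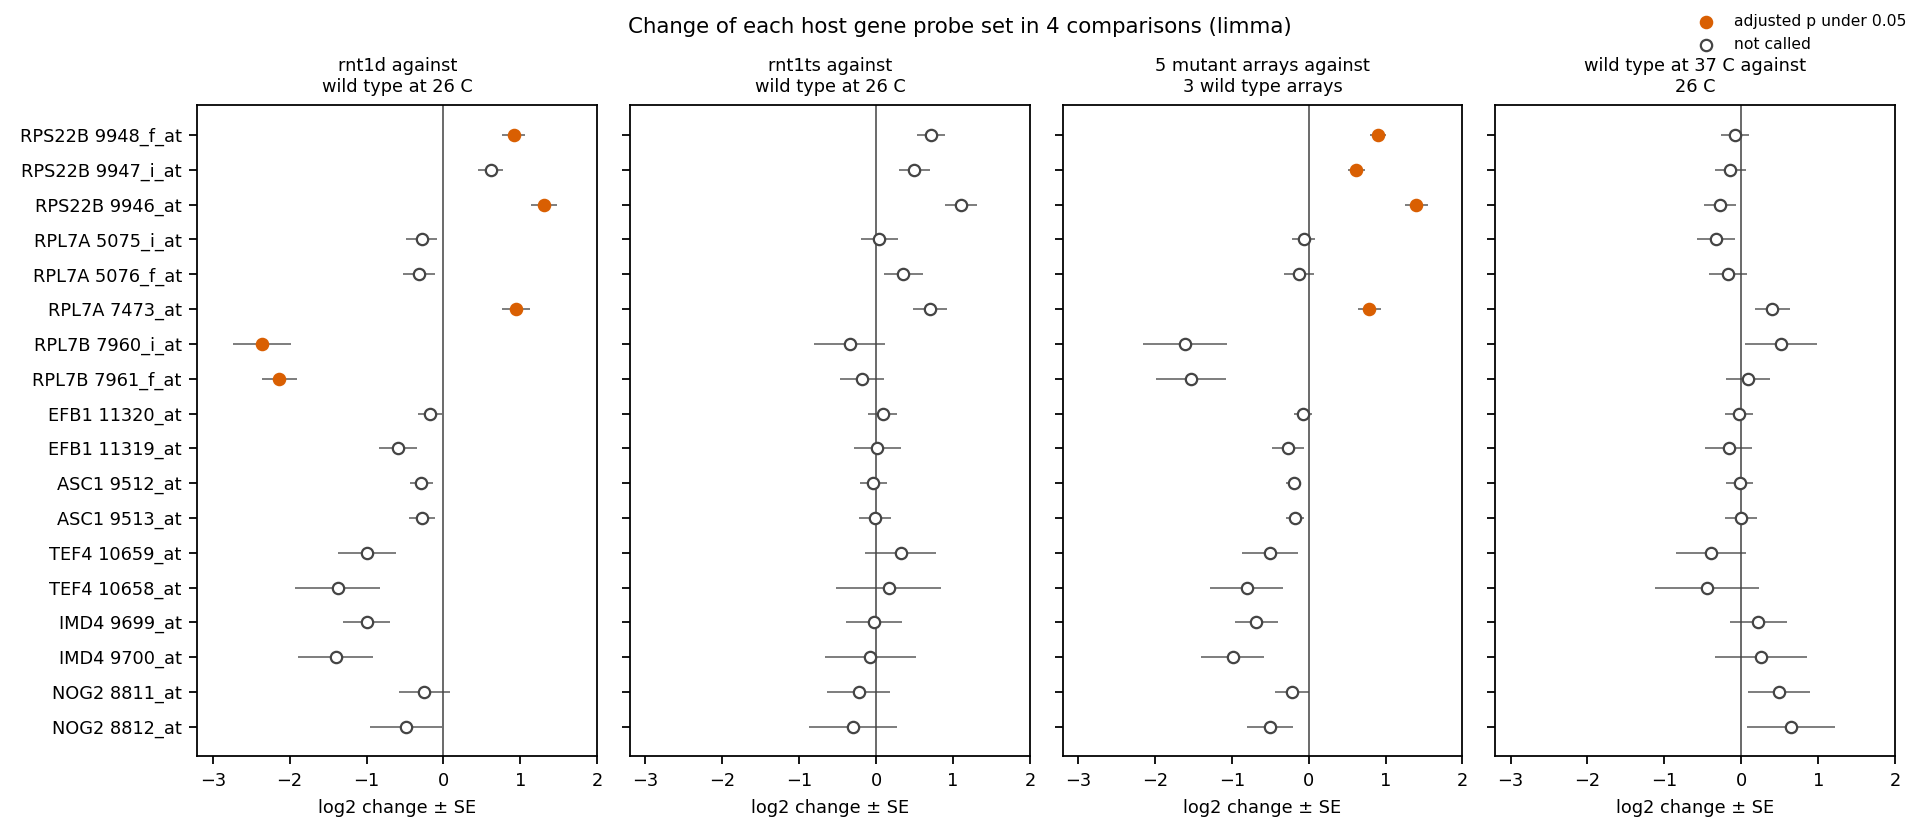
Log2 change with its standard error of each host gene probe set in 4 comparisons, where filled points have an adjusted p under 0.05. The RPS22B probe sets lie right of 0 in the 3 comparisons of mutant with wild type and at or left of 0 in wild type at 37 C against 26 C, and RPL7B lies farthest left in rnt1d at 26 C.

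SNR44, a box H/ACA snoRNA that lies within RPS22B in the R64 annotation, was low on 4 of the 5 mutant arrays on which its host was high. It read 150.0 and 76.4 in rnt1d at 26 C and 275 in rnt1ts at 26 C, against 281 and 262 in wild type at 26 C. Among the 37 C arrays it read 71.9 on that labelled rnt1d and 147 on that labelled rnt1ts, against 306 in wild type. After normalisation the rnt1ts array at 26 C lay among the wild type arrays, and the other 4 mutant arrays lay below them. On the deposited signals rnt1d replicate 1 at 26 C, at 214, lay above wild type replicate 2, at 187. The log2 change in rnt1d at 26 C was -1.21 (SE 0.29), which did not pass the test (limma adjusted p = 0.0735).

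RPS22A, the paralog of RPS22B, whose span holds no snoRNA in the same annotation, was nearly level. It read 6052 and 5171 in rnt1d at 26 C and 6817 in rnt1ts at 26 C, against 6052 and 6226 in wild type at 26 C. The 37 C arrays labelled rnt1d and rnt1ts read 5634 and 6052, against 6052 in wild type at 37 C. The log2 change in rnt1d at 26 C was -0.13 (limma adjusted p = 0.655). This probe set ranked between 3 and 8 from the brightest on every array, where the highest signal was 7493.

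The genes whose signals were most like RPS22B over the 8 arrays were the snoRNAs SNR73, SNR57 and SNR51, with Pearson r of 0.992, 0.991 and 0.990 on the log2 scale among 3747 genes compared. These correlations have no p, and they mostly carry the gap between the mutant and the wild type arrays, since each of the 4 genes falls into these 2 sets. SNR73 read 1879 and 1487 in rnt1d and 858 in rnt1ts at 26 C, against 66.7 and 48.0 in wild type at 26 C. At 37 C SNR73 read 2461 on the array labelled rnt1d and 1957 on the array labelled rnt1ts, against 71.3 in wild type. Its log2 change in rnt1d at 26 C was 4.54 (limma adjusted p = 0.000422). All 3 are box C/D snoRNAs encoded outside introns.

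**Figure D3:**
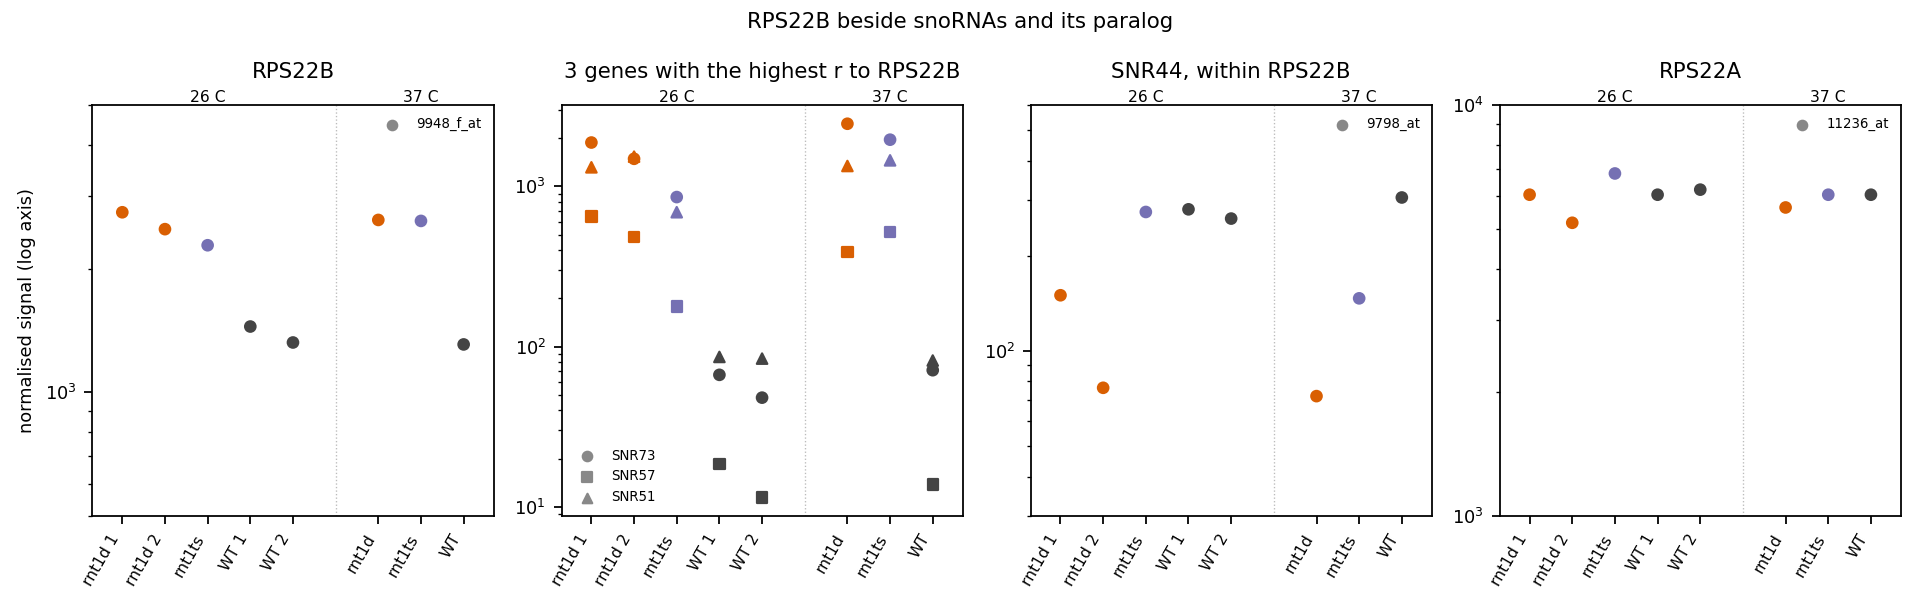
Normalised signal (log axis) of RPS22B, of the 3 genes most like it, of SNR44 within RPS22B and of the paralog RPS22A on the 8 arrays, with rnt1d in orange, rnt1ts in violet and wild type in grey, and the 37 C arrays placed by their labels. RPS22B and the 3 snoRNAs are high on all 5 mutant arrays, SNR44 is low on 4 of them, and RPS22A stays between 5171 and 6817.

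RPL7B and RPL7A code for near-identical proteins of the large ribosomal subunit and carry the snoRNAs SNR59 and SNR39 in introns. RPL7B fell in rnt1d at 26 C in both of its probe sets. Probe set 7960_i_at read 113 and 276 in rnt1d at 26 C and 770 in rnt1ts at 26 C, against 1057 and 908 in wild type at 26 C. At 37 C it read 828 on the array labelled rnt1d and 292 on the array labelled rnt1ts, against 1408 in wild type. All 5 mutant arrays lay below the wild type arrays after normalisation, as in 6.22% of all probe sets, and 3 of them far below. The deposited signals overlapped, 161 to 942 on mutant arrays and 814 to 1499 on wild type arrays. The mean was 195 ± 115 in rnt1d and 982 ± 106 in wild type at 26 C (SD, n = 2 each), and the log2 change was -2.36 (SE 0.38, limma adjusted p = 0.0305).

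Probe set 7961_f_at read 55.2 and 65.8 in rnt1d at 26 C and 279 in rnt1ts at 26 C, against 391 and 259 in wild type at 26 C. Among the 37 C arrays it read 138 on that labelled rnt1d and 71.6 on that labelled rnt1ts, against 338 in wild type. Here the rnt1ts array at 26 C lay between the 2 wild type arrays. The suffixes of 7961_f_at and of RPL7A 5076_f_at mark probe sets that may share sequence with related genes. The log2 change in rnt1d at 26 C was -2.13 (SE 0.23, limma adjusted p = 0.0108). Within replicate 1 the change was -3.05 for 7960_i_at and -2.52 for 7961_f_at, and within replicate 2 it was -1.66 and -1.75. Leaving out wild type replicate 1 or 2 ended the call of 7960_i_at (limma adjusted p = 0.235 and 0.210), and leaving out any 1 of the 4 arrays ended that of 7961_f_at (0.0556 to 0.132). Over 5 mutant against 3 wild type arrays neither was called, with log2 changes of -1.61 for 7960_i_at and -1.53 for 7961_f_at (limma adjusted p = 0.186 and 0.159).

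The arrays with the lowest RPL7B signals were the same 3 on which OLI1, COX1 and ATP6 were at background, as was RNT1, namely both rnt1d arrays at 26 C and the 37 C array labelled rnt1ts. The part of the mitochondrial genes in the RPL7B result was not tested. Among 3747 genes compared, 3 were most like RPL7B over the 8 arrays, again as a description. LYS20, a homocitrate synthase of lysine synthesis, had a Pearson r of 0.973, MRM1, a methyltransferase of mitochondrial ribosomal RNA, 0.961, and DUT1, the dUTPase, 0.957. None of these 3 passed the test in rnt1d at 26 C, with log2 changes of -1.49, -0.78 and -0.58 (limma adjusted p = 0.0704, 0.0664 and 0.0992).

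**Figure D4:**
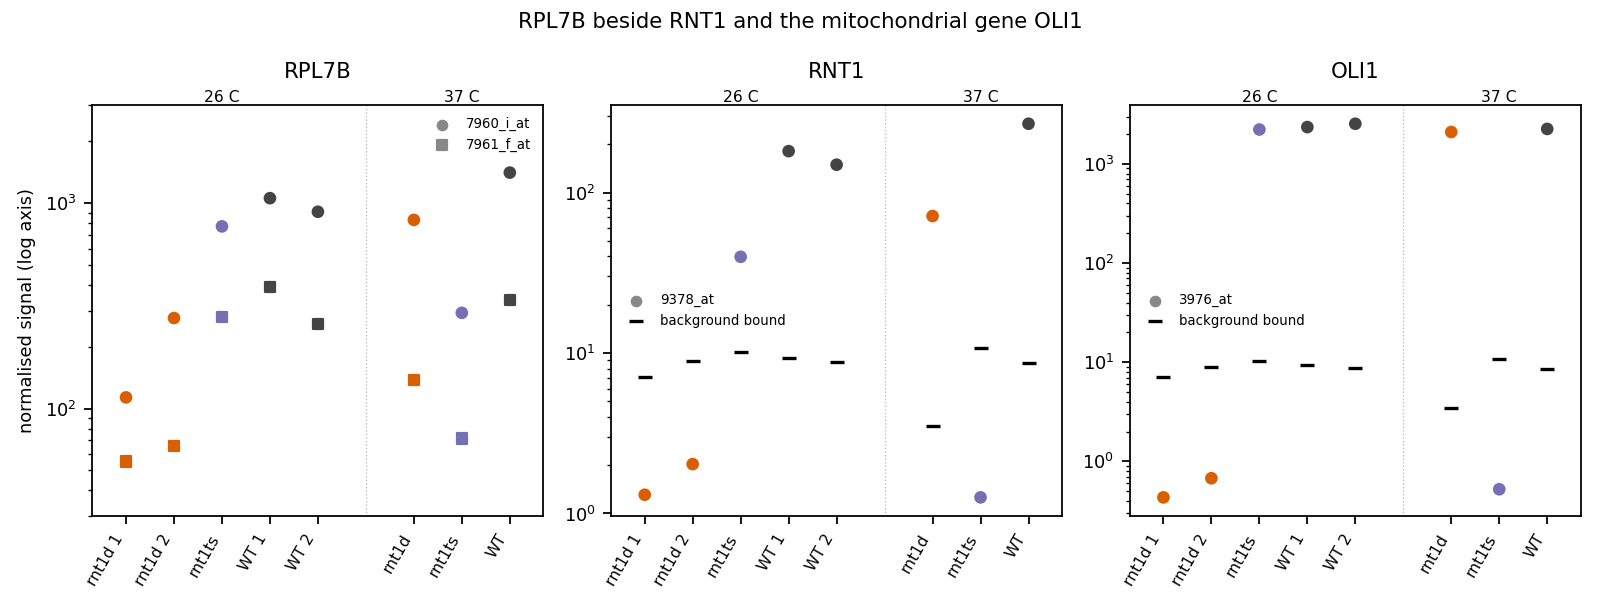
Normalised signal (log axis) of RPL7B, RNT1 and the mitochondrially encoded OLI1 on the 8 arrays, with rnt1d in orange, rnt1ts in violet and wild type in grey, the 37 C arrays placed by their labels, and a dash at the brightest non-yeast control of each array. RNT1 and OLI1 lie below the dash on the 3 arrays with the lowest RPL7B, and on the array labelled rnt1d at 37 C all of them are well above it.

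RPL7A had probe sets that did not agree. Its brightest, 5075_i_at, read 2361 and 1834 in rnt1d at 26 C and 2613 in rnt1ts at 26 C, against 2853 and 2254 in wild type at 26 C. The 37 C arrays labelled rnt1d and rnt1ts read 2175 and 2260, against 2021 in wild type at 37 C. The mutant and wild type ranges overlapped, and the log2 change in rnt1d at 26 C was -0.28 (SE 0.20, limma adjusted p = 0.453). 5076_f_at moved alike over the arrays, with a log2 change of -0.32 (limma adjusted p = 0.41). A probe set shared by RPL7A and RPL7B, 7962_s_at, had a log2 change of -0.45 (SE 0.18, limma adjusted p = 0.221).

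The third, 7473_at, was much dimmer and ran the other way. It read 157 and 127 in rnt1d at 26 C and 117 in rnt1ts at 26 C, against 61.7 and 70.0 in wild type at 26 C. At 37 C it read 149 on the array labelled rnt1d and 162 on the array labelled rnt1ts, against 92.2 in wild type. All 5 mutant arrays were higher than the 3 wild type arrays after normalisation, as in 5.93% of all probe sets. The deposited signals overlapped (86.8 to 223 on mutant arrays, 45.8 to 98.0 on wild type arrays). The log2 change in rnt1d at 26 C was 0.94 (SE 0.18, limma adjusted p = 0.0443), 1.15 within replicate 1 and 0.73 within replicate 2, and any 1 array left out ended the call (limma adjusted p 0.0981 to 0.300). Over 5 mutant against 3 wild type arrays it was 0.79 (SE 0.15, limma adjusted p = 0.0461). Over the 8 arrays its Pearson r was -0.36 with 5075_i_at and -0.44 with 5076_f_at, while those 2 correlated with each other at 0.82. The annotation used here does not say what part of the RPL7A locus 7473_at reads, so it is reported as a probe set and not as the gene's level. SNR39, the box C/D snoRNA within RPL7A, had a log2 change of 0.27 in rnt1d at 26 C (limma adjusted p = 0.605), and SNR59 of RPL7B has no probe set of that name.

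To ask whether 2 paralogs changed unequally, the log2 difference between copy A and copy B was taken on each array, from the brightest probe set of each, for 31 ribosomal protein pairs. Levels of different probe sets cannot be set against each other, so only the change of this difference is read. For RPS22B the brightest probe set is 9948_f_at, whose suffix marks a probe set that may share sequence with related genes. The 2 copies may thus not be read fully apart. RPS22A minus RPS22B was 1.14 and 1.05 in rnt1d at 26 C and 1.57 in rnt1ts at 26 C, against 2.05 and 2.22 in wild type at 26 C. At 37 C it was 1.10 on the array labelled rnt1d and 1.21 on the array labelled rnt1ts, against 2.20 in wild type. All 5 mutant arrays had a smaller difference than all 3 wild type arrays. How many of the 31 pairs were split in this way was not counted, so this order is a description only. In rnt1d against wild type at 26 C it changed by -1.05 (SE 0.17, limma adjusted p = 0.0485). This was the only pair called, 3.23% of the 31. The RPS22A probe set lay near the top of the signal scale, where quantile normalisation gave 4 of the 8 arrays the same value. The call was lost on the deposited scale (adjusted p = 0.0768, limma), with median scaling (0.0575), with a pseudocount of 1 (0.0511), with the replicate number as a block (0.186) and with any 1 replicated array left out (0.0619 to 0.357).

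RPL7A minus RPL7B was 4.20 and 2.66 in rnt1d at 26 C and 1.74 in rnt1ts at 26 C, against 1.42 and 1.30 in wild type at 26 C. At 37 C it was 1.38 on the array labelled rnt1d and 2.88 on the array labelled rnt1ts, against 0.52 in wild type. The change in rnt1d at 26 C was 2.07 (SE 0.51), the largest in size of the 31 pairs, and it did not pass the test (limma adjusted p = 0.104). It did pass when the mean of all probe sets of each copy was used, with a change of 2.36 (limma adjusted p = 0.0129), a mean that includes 7473_at. RPL22A minus RPL22B changed by 1.11 (limma adjusted p = 0.0715) and RPL9A minus RPL9B by 0.85 (limma adjusted p = 0.237). In rnt1ts against wild type at 26 C, 0 of the 31 pairs were called, with -0.56 for RPS22 and 0.38 for RPL7 (limma adjusted p = 0.882 for both).

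**Figure D5:**
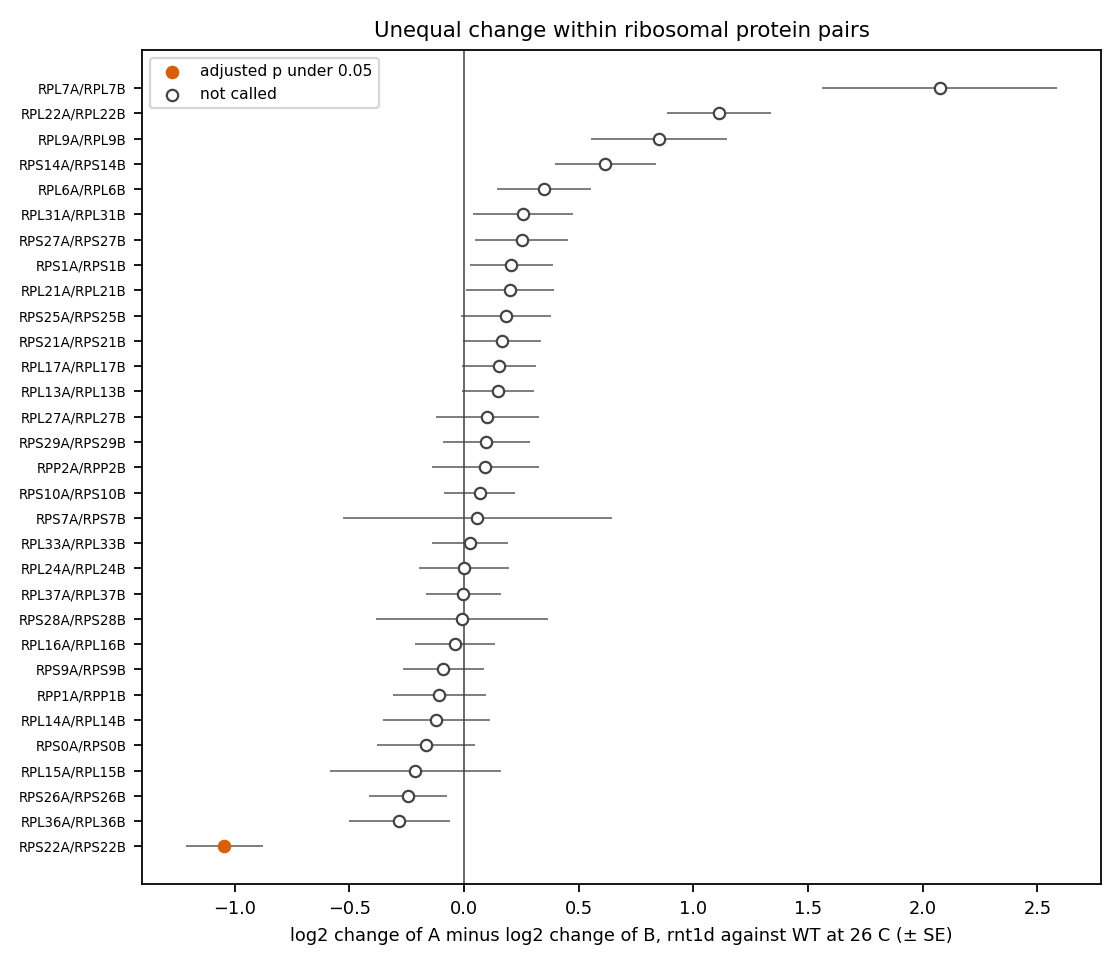
Change of the difference between copy A and copy B, in log2 with its standard error, in rnt1d against wild type at 26 C for 31 pairs of ribosomal protein genes, where the filled point has an adjusted p under 0.05. RPS22A/RPS22B stands alone on the left at -1.05, and RPL7A/RPL7B lies farthest right at 2.07 with the wider error bar.

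EFB1, TEF4 and ASC1 serve translation. EFB1 and TEF4 code for the alpha and gamma subunits of elongation factor eEF1B, which reloads eEF1A with GTP, and ASC1 for the RACK1 protein bound to the small subunit. Their introns hold SNR18, SNR38 and SNR24. None of their 6 probe sets passed the test in rnt1d against wild type at 26 C. ASC1 was the steadiest. Its 9512_at read 3255 and 2904 in rnt1d at 26 C and 3662 in rnt1ts at 26 C, against 3735 and 3776 in wild type at 26 C. At 37 C ASC1 9512_at read 3224 on the array labelled rnt1d and 3314 on the array labelled rnt1ts, against 3700.1 in wild type. After normalisation all 5 mutant arrays were lower than the wild type arrays by little, an order that 6.22% of all probe sets had. The deposited signals overlapped, 1931 to 4881 on mutant arrays and 3142 to 4370 on wild type arrays. The log2 change in rnt1d at 26 C was -0.29 (limma adjusted p = 0.303). The second ASC1 probe set, 9513_at, had a change of -0.28 (limma adjusted p = 0.385).

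EFB1 11320_at read 2572 and 2340 in rnt1d at 26 C and 2941 in rnt1ts at 26 C, against 2613 and 2941 in wild type at 26 C. Among the 37 C arrays it read 2914 on that labelled rnt1d and 2361 on that labelled rnt1ts, against 2713 in wild type. The ranges overlapped, and the log2 change in rnt1d at 26 C was -0.18 (limma adjusted p = 0.543), with -0.59 for 11319_at (limma adjusted p = 0.230).

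TEF4 varied widely between replicates. Its 10659_at read 389 and 176 in rnt1d at 26 C and 678 in rnt1ts at 26 C, against 643 and 452 in wild type at 26 C. The 37 C arrays labelled rnt1d and rnt1ts read 279.5 and 332, against 407 in wild type at 37 C. In both strains replicate 2 was the lower, and those are the arrays with the bright spiked controls. The log2 change in rnt1d at 26 C was -0.99 for 10659_at (limma adjusted p = 0.189) and -1.38 for 10658_at (limma adjusted p = 0.212). Within replicate 1 these were -0.70 and -1.05 and within replicate 2 -1.29 and -1.70, the same direction in both. With the replicate number as a term, both were called lower (limma adjusted p = 0.0106 for 10659_at and 0.0040 for 10658_at), in a fit that called 15.5% of all probe sets, 6.99% lower. CAM1, which codes for the other gamma subunit, had a change of -0.16 (limma adjusted p = 0.641). SNR38, the box C/D snoRNA within TEF4, was dim, with normalised signals of 16.2 to 52.6. It was lower on all 5 mutant arrays than on the wild type arrays after normalisation, as were 6.22% of all probe sets. The deposited signals overlapped, 11.1 to 47.0 on mutant arrays and 33.9 to 55.2 on wild type arrays. Its change of -0.71 in rnt1d at 26 C did not pass the test (limma adjusted p = 0.163).

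IMD4 codes for an IMP dehydrogenase of GTP synthesis and carries SNR54. Its 9699_at read 787 and 432 in rnt1d at 26 C and 1165 in rnt1ts at 26 C, against 1333 and 1053 in wild type at 26 C. At 37 C it read 870.3 on the array labelled rnt1d and 828 on the array labelled rnt1ts, against 1384 in wild type. After normalisation 4 of the 5 mutant arrays lay below all wild type arrays, and the rnt1ts array at 26 C lay among the wild type arrays. On the deposited signals rnt1d replicate 1 at 26 C, at 944, lay above wild type replicate 2, at 931. The log2 change in rnt1d at 26 C was -1.0 for 9699_at (limma adjusted p = 0.120) and -1.40 for 9700_at (limma adjusted p = 0.160), with -0.75 and -1.09 within replicate 1 and -1.25 and -1.71 within replicate 2. With the replicate number as a term both were called lower (limma adjusted p = 0.0084 and 0.0030), again in the fit that called 15.5% of all probe sets. Its paralogs had changes of -0.68 for the brightest IMD2 probe set (limma adjusted p = 0.0533) and -0.66 for IMD3 (limma adjusted p = 0.149), neither called. The probe sets of these closely related genes may share sequence. SNR54 itself had a change of -0.13 (limma adjusted p = 0.826) and was above background on 7 of the 8 arrays.

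NOG2 codes for a GTPase of late large subunit assembly in the nucleus and carries SNR191. Its 8811_at read 845 and 407 in rnt1d at 26 C and 597 in rnt1ts at 26 C, against 719 and 685 in wild type at 26 C. Among the 37 C arrays it read 1019 on that labelled rnt1d and 767 on that labelled rnt1ts, against 993 in wild type. The 2 rnt1d arrays at 26 C fell on either side of wild type, 0.23 above within replicate 1 and 0.73 below within replicate 2 on the log2 scale, so the change of -0.25 has no settled direction (limma adjusted p = 0.698). 8812_at had a change of -0.49 (limma adjusted p = 0.585).

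Of the 8 snoRNAs that lie within these hosts in the R64 annotation, 4 had a probe set of their own, SNR44, SNR38, SNR39 and SNR54. None was called in rnt1d at 26 C, and their median log2 change was -0.42. SNR59, SNR18, SNR24 and SNR191 have no probe set of that name and were not analysed here.

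In rnt1ts against wild type at 26 C, with 1 rnt1ts array, none of the 18 probe sets was called, against a background of 0.787%, with 0.582% higher and 0.205% lower. At an unadjusted p under 0.05 there were 3 of the 18, against 8.96% of all probe sets. The RPS22B log2 changes were 1.10 for 9946_at (limma adjusted p = 0.143), 0.71 for 9948_f_at (0.299) and 0.50 for 9947_i_at (0.556). For RPL7A 7473_at it was 0.70 (limma adjusted p = 0.438). RPL7B had changes of -0.34 for 7960_i_at (limma adjusted p = 0.945) and -0.18 for 7961_f_at (0.953). Against wild type replicate 1 alone, whose spiked controls were dim as on the rnt1ts array, RPS22B 9946_at was 0.99 higher and RPL7B 7960_i_at had a difference of -0.45.

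In rnt1d against rnt1ts at 26 C, 1 of the 18 was called, against a background of 1.57%, with 0.765% lower. It was RPL7B 7961_f_at, with a log2 difference of -1.95 (SE 0.28, limma adjusted p = 0.0425). The lone rnt1ts array is assumed to vary like the replicated arrays. The call was lost on deposited signals (limma adjusted p = 0.307), after median scaling (0.0545) and with any 1 replicated array left out (0.118 to 0.141). RPL7B 7960_i_at had a difference of -2.02 and was not called (limma adjusted p = 0.112). RPS22B 9948_f_at had a difference of 0.20 (SE 0.18, limma adjusted p = 0.649). That sign turned to -0.42 on deposited signals and to -0.27 after median scaling, so no order of the mutants is read from it.

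At 37 C each strain had 1 array, so the differences have no replicate check. Past 2-fold against wild type, the array labelled rnt1d had 1 of the 18 probe sets higher and 1 lower, against 2.58% and 3.3% of all probe sets. The array labelled rnt1ts had 1 higher and 3 lower, against 3.59% and 3.32%. RPS22B 9946_at was the higher one on both, 3.03-fold on the array labelled rnt1d and 3.44-fold on the array labelled rnt1ts. RPL7B 7961_f_at was the lower one on both, at 0.43 of wild type on the array labelled rnt1d and 0.25 on the array labelled rnt1ts. RPL7B 7960_i_at and IMD4 9700_at were past 2-fold lower only on the array labelled rnt1ts, at log2 differences of -2.21 and -1.12, against -0.75 and -0.95 on the array labelled rnt1d.

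In wild type at 37 C against 26 C, none of the 18 probe sets and none of all probe sets was called (0%) in the limma fit. At an unadjusted p under 0.05 there were 0 of the 18 and 894 of all, 9.64%. The log2 changes spanned -0.44 to 0.65. RPS22B 9946_at had -0.28 (limma adjusted p = 0.723) and RPL7B 7960_i_at 0.52 (limma adjusted p = 0.764).

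The wider gene groups to which the hosts belong were counted by gene, with the brightest probe set for each, in rnt1d against wild type at 26 C. Of all 5656 genes 241 rose and 148 fell, with a median log2 change of -0.02. Ribosomal protein genes were taken by symbol (RPL, RPS or RPP and a number), which also took in RPP1, a gene of RNase P. Of these 81 genes 1 rose, RPS22B, and 3 fell, RPL7B, RPL9B at -1.64 and RPL22B at -1.56. The median of the 81 was -0.17. Of 42 measured intron-containing genes that neither host a snoRNA nor code for a ribosomal protein, HNT1, a hydrolase of nucleotide conjugates, rose by 0.76 (limma adjusted p = 0.0498). COX4 and QCR10, both of the respiratory chain, fell by 1.86 and 0.87, and the group's median was -0.05.

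Of 13 measured genes of intron debranching, snoRNA trimming and RNA decay, 1 fell, RNT1 itself, none rose, and the median was -0.23. None of 11 box C/D snoRNP genes was called, the lowest p values belonging to the helicase RVB2 (-0.66), the core protein NOP56 (-0.83) and the assembly factor HIT1 (0.61). None of 5 measured box H/ACA snoRNP genes was called, with a median of -0.44 and all 5 changes negative. The lowest p values there belonged to SHQ1 (-0.54), GAR1 (-0.46) and the pseudouridine synthase CBF5 (-0.44). None of 6 measured elongation genes and none of 7 purine nucleotide synthesis genes was called, with medians of -0.17 and -0.66. The elongation genes include EFB1, TEF4 and CAM1, and their lowest p values belonged to ANB1 (-0.70), TEF4 (-0.99) and HYP2 (0.26). The purine genes include IMD4, IMD2 and IMD3, which had the lowest p values of that list. Of 7 genes of large subunit assembly, not all of them GTPases, NUG1 rose by 0.80 (limma adjusted p = 0.0395), and the median was -0.27. The medians shift with scaling. Scaled to a common median, that of purine nucleotide synthesis was -1.15 and that of box H/ACA -0.66, against -0.09 over all genes.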

How the data were processed

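Per the submitters' processing notes, MAS5 turned the scanned yeast Affymetrix arrays into the deposited intensity, 1 value per probe set. A genome build is not given in the sources used. Of 9335 probe sets 60 controls were left out. Probe sets were named from the platform annotation (6504 with 1 gene, 328 with several, 2443 unnamed), and snoRNAs were placed in hosts by the R64 gene table. Array medians differed, so signals were quantile-normalised and tested as log2(signal + 16) with limma 3.58.1 (R 4.3.3), 6 group means over 8 arrays, Benjamini-Hochberg adjustment over 9275 probe sets. Fold changes on this scale understate changes of dim probe sets. The number of arrays limits the precision. The code was tested on simulated data. Nothing says which cultures the arrays came from beyond the label biological replicate, so p-values measure the spread between these arrays. Every host gene probe set is given. Of each other list, up to 4 called genes are named (5 for ribosomal proteins), or the 3 of smallest p where none was called, and for RPS22B and RPL7B the 3 most correlated genes. The genes and lists were chosen with earlier results of these data known. Alternatives were the scale, pseudocount 1, a filter at the median signal, each replicated array left out, the replicate number as a block, and, added after seeing the data, the spiked-control split, the pooled comparison and that comparison without the mutant arrays at 37 C.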

Additional observations from a re-analysis of the deposited data

Results flagged for a closer look

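RPL7B probe set 7961_f_at differed between the mutants at 26 C, with rnt1d minus rnt1ts at -1.95 on the log2 scale. The difference itself was tested in the limma fit (SE 0.28, adjusted p = 0.0425), where the spread comes from the replicated groups because there was 1 rnt1ts array. The call was lost on deposited signals (limma adjusted p = 0.307) and after median scaling (0.0545). Both rnt1d arrays, at 55.2 and 65.8, lay below the rnt1ts array at 279.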

How the results depend on the processing

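Each strain at 26 C had at most 2 arrays, so counts of calls moved widely. In rnt1d against wild type at 26 C, 509 probe sets were called. The count was 100 on the deposited scale (69 higher, 31 lower), 766 without dim probe sets and 33 to 241 with 1 replicated array left out. Median scaling gave 565 but turned the split to 229 higher and 336 lower, against 328 and 181. With the replicate number as a block it was 1439, and with the spiked-control split as a term 1425. Replicate deviations of rnt1d and wild type correlated at 0.31, a hint from 2 pairs only. Of the 18 host gene probe sets, 5 were called, against 1 on the deposited scale, 0 to 1 with an array left out, and 10 with either term, the additions being RPS22B 9947_i_at and both probe sets of TEF4 and of IMD4. In rnt1ts against wild type, 73 were called, with 0 to 51 when an array was left out and 148 with the split. In rnt1d against rnt1ts, 146 were called, with 56 on the deposited scale, 97 with median scaling, 337 without dim probe sets, 10 to 45 with an array left out and 428 with the split. The host gene count there was 1, against 0 on deposited signals or after median scaling, 2 without dim probe sets and with the split, and 0 to 1 with an array left out. In wild type at 37 C against 26 C, 0 were called, against 14 on the deposited scale, 2 without dim probe sets and 4 with the split. Over 5 mutant against 3 wild type arrays, 119 were called, with 79 on the deposited scale, 49 to 78 with an array left out and 21 without the mutant arrays at 37 C. The host gene count was 4, against 0 on the deposited scale and without those arrays, and 2 with median scaling, with the split and with any array left out. The paralog count was 1, against 0 on deposited signals, after median scaling, at pseudocount 1 and in the replicate block, 3 with the mean of probe sets, and 0 to 2 with an array left out. In that blocked fit RPS22A minus RPS22B had a limma adjusted p of 0.186. Signs turned for values that were not called. NOG2 8811_at in rnt1d spanned -0.76 to 0.26 and 8812_at -1.04 to 0.070 with an array left out, each turning without rnt1d replicate 2 (0.26 and 0.070), and 8812_at also without wild type replicate 1 (0.01). RPL7B 7961_f_at in rnt1ts was 0.30 on the deposited scale and -0.47 to 0.10 with an array left out. RPS22B 9948_f_at in rnt1d against rnt1ts was -0.42 on deposited signals and -0.27 after median scaling. Over all host gene probe sets and alternatives, 0 sign changes of a called value occurred. Apart from the arrays left out, the cause of these shifts was not tested.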
